A study of Homo sapiens with 6 samples.

Results

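The genes of the mitochondrial ribosomal proteins (MRP genes) were examined in RNA bound to the acetyltransferase NAT10 and in RNA carrying N4-acetylcytidine (ac4C) in colorectal cancer cells. The members were the protein-coding genes of the RIP-seq table whose symbol is MRPL or MRPS followed by a number and, in some cases, a letter from A to C. There were 78 such genes among 19847 protein-coding genes and 58302 genes in all. Of the 78, 73 reached the minimum used for ratios, an Input level of at least 1 FPKM (fragments per kilobase of transcript, normalized to the depth of the library) in both Input libraries of the RIP-seq table, as did 10350 protein-coding genes. The 5 members below it were MRPL38, MRPL46, MRPL53, MRPS17 and MRPS24.

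SW480 and DLD-1 are established human colorectal cancer cell lines, grown here as wild-type cells without treatment. By the sample labels, each line gave 1 library of total RNA (Input). RNA of each line precipitated with an antibody against NAT10 from lysed cells gave 1 library (RIP). RNA of each line precipitated with an antibody against ac4C gave 1 library (acRIP). Each of the 6 groups thus held 1 library by its label, and no control antibody library was used here. With no replicates, every difference compares 2 libraries, the errors given on ratios are counting errors only, and no p-value was computed. The RIP-seq data addressed which transcripts NAT10 binds, and the acRIP-seq data which transcripts carry ac4C.

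The mitochondrial ribosome translates the proteins encoded by the mitochondrial genome, all of which belong to the oxidative phosphorylation complexes. Its proteins are encoded in the nucleus, made by cytosolic ribosomes and imported, and they include relatives of bacterial ribosomal proteins as well as proteins found only in mitochondria. NAT10 writes ac4C on rRNA, tRNA and mRNA, and its sites in RNA have been described within runs of base triplets that each begin with cytidine. Members were assigned to a subunit by symbol, except that MRPS30 and MRPS18A were counted with the large subunit. Of the 73 members that reached the minimum, 48 were thus counted as large subunit genes and 25 as small subunit genes. MRPS36, which RefSeq matched by a synonym, was counted with the small subunit by its symbol alone.

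The deposited peak lists mark sites of the motif CNNCNNCNNCNN, on the strand of the host transcript, inside ac4C peaks. Sites of 3 members inside the promoter and start-site windows of RefSeq (GRCh38.p14), where bases could be read here, are shown. Part of the genome was left out of this choice, so 3 may not be the full count of such members. Each stretch is written 5′ to 3′ on the strand of the gene, as DNA, with the 4 cytidines of the motif in capitals.
MRPL34, chr19:17305849-17305878, plus strand: ctccggaatCgcCcgCagCcggtactgcgg
MRPL51, chr12:6493247-6493276, minus strand: tgggcggtgCgcCcaCagCtgcctgggtaa
MRPS7, chr17:75261896-75261925, plus strand: ccaagatggCtgCccCcgCagtgaaggttg
RefSeq gives MRPL34 several start sites, and the stretch shown lies at the most downstream of these, inside the gene's interval. Relative to the start site of its window, counted as 0, the motif began at -14 in MRPL34, at -5 in MRPL51 and at 26 in MRPS7. The MRPL34 site was listed in the SW480 peak of 69.7-fold, and in neither of the other lists. The MRPL51 site was listed in the DLD-1 peak of 127-fold and in the pooled peak of 316-fold, and the MRPS7 site in small peaks of 5.77-fold and 3.76-fold in the same lists. Of 130 distinct motif sites of any host that fell inside these windows, 129 matched the motif at the position read.

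Before the ratios, the labels were compared with the data. The libraries are called SW480-RIP, SW480-Input, DLD-1-RIP and DLD-1-Input after the labels they carry. They held at least 25512347, 11315173, 20962315 and 10771855 reads in this order, as recovered from the FPKM steps. Among the 78 members, Pearson's r of log2(FPKM + 1) was 0.840 between SW480-RIP and SW480-Input but 0.875 between SW480-RIP and DLD-1-Input. It was 0.818 between DLD-1-RIP and DLD-1-Input but 0.878 between DLD-1-RIP and SW480-Input. These values run across genes and are descriptions, and over 16196 protein-coding genes above 0 in any library they were 0.871, 0.944, 0.856 and 0.951. VIM, the intermediate filament of mesenchymal cells, stood at 128 FPKM in SW480-RIP, 0.0770 in SW480-Input, 0.804 in DLD-1-RIP and 11.1 in DLD-1-Input, whereas the intestinal keratin KRT20 was listed at 0, 29.2, 23.9 and 0.0426. The epithelial markers EPCAM, CDH1, KRT8 and KRT18 lay between 54.1 and 1642 FPKM in all 4 libraries, CDX1 and VIL1 were at or below 1.24, and the leukocyte markers PTPRC and CD3E were at or below 0.0196. RIP and Input libraries that share a label were thus less alike than those that do not. Each ratio is therefore given as labelled and with the Inputs exchanged, that is, SW480-RIP over DLD-1-Input and DLD-1-RIP over SW480-Input, and which library carries which line's RNA cannot be told apart from these files.

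In the Inputs the members covered a wide range of levels. Over the 78 genes the median was 13.2 FPKM in SW480-Input and 15.8 in DLD-1-Input, and the highest values were 99.1 and 92.9. The highest mean levels over both Inputs belonged to MRPS34, a small subunit protein specific to mitochondria, with 99.1 and 76.8 FPKM, to MRPS18B with 58.6 and 92.9, and to MRPL37 with 69.2 and 56.4. At the other end, MRPS24 was listed at 0 in both Inputs and at 0.117 and 0.368 in SW480-RIP and DLD-1-RIP. MRPS17 stood at 0.0742 and 0.321 FPKM in the Inputs and MRPL38 at 0.616 and 0.510. RefSeq places MRPS24 inside the readthrough gene URGCP-MRPS24, which was itself listed at 0 in all 4 libraries.

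The Inputs of the lines differed little for the members as a group. The median log2 ratio of SW480-Input to DLD-1-Input, with 1 FPKM added to each value, was -0.15 over 73 members and -0.03 over all protein-coding genes. Members at least 2-fold higher numbered 2, where 6.66% of protein-coding genes passed, and members at least 2-fold lower numbered 4, where 8.95% passed. The former were MRPL16, at 50.2 and 17.1 FPKM, and MRPL23, at 10.3 and 3.22. The latter were MRPS6, at 12.7 and 36.4 FPKM, MRPL57, MRPL33 and MRPS22. The acRIP-seq table gives a second set of Input values under the same labels, called the second reading here. Whether both sets come from the same libraries is not stated. Since the labels list 1 Input sample per line, the second set was counted as no further replicate. Over the 78 members, Pearson's r of log2(FPKM + 1) between both sets was 0.899 for SW480-Input and 0.923 for DLD-1-Input. In the acRIP-seq values, scaled by the median per-gene ratio of both sets, all 6 genes kept these signs. Their log2 ratios were 1.79, 0.77, -1.54, -1.29, -0.56 and -0.72. In the RIP libraries all 6 had the reverse order, with log2 SW480-RIP over DLD-1-RIP of -1.17, -1.07, 1.38, 0.28, 0.79 and 0.37. This was not particular to them. Over all 10350 protein-coding genes the Input and RIP ratios also ran opposite, with Pearson's r of -0.845, against -0.727 over the 73 members. In bulk libraries, fewer cells with a transcript and less RNA per cell cannot be told apart.

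Next, the NAT10 RIP libraries were compared with Input. The members as a group lay above Input, with a median log2 RIP/Input of 0.43 (quartiles -0.06 and 0.96) under the SW480 labels and 0.36 (-0.03 and 0.98) under the DLD-1 labels. Over all 10350 protein-coding genes the medians were 0.18 and 0.07. With the Inputs exchanged, the members' medians were 0.37 for SW480-RIP and 0.51 for DLD-1-RIP, against 0.11 and 0.09 for all protein-coding genes. The 10350 protein-coding genes took 64.3% and 64.2% of all FPKM in SW480-Input and DLD-1-Input, and 82.2% and 75.7% in SW480-RIP and DLD-1-RIP. The part of this difference in the ratios was not tested.

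**Figure D1:**
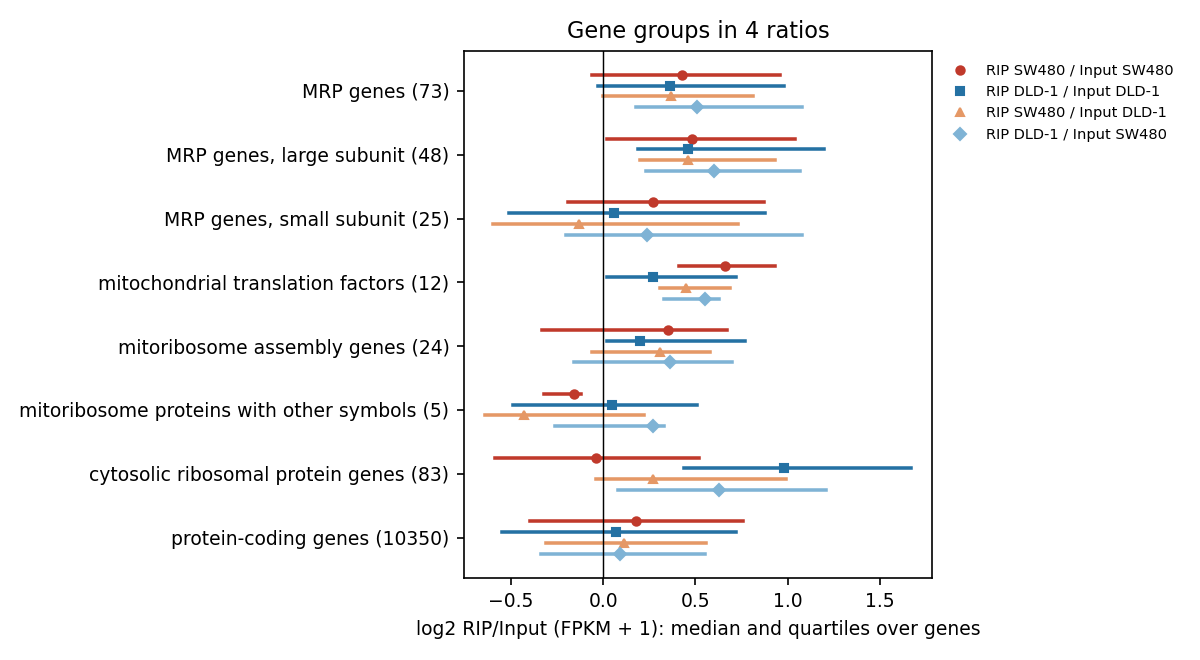
Median (symbol) and quartiles (line) of log2 RIP/Input, computed on FPKM + 1, for gene groups in 4 pairings of RIP and Input libraries, with the number of genes in parentheses. The medians of the 73 MRP genes lie between 0.36 and 0.51 and those of all 10350 protein-coding genes between 0.07 and 0.18.

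A 2-fold difference was then used to count single members. At least 2-fold above Input were 17 of 73 under the SW480 labels, where 17.4% of protein-coding genes passed, and 18 under the DLD-1 labels, where 16.7% passed. The members' shares were 23.3% and 24.7%. With the Inputs exchanged the counts were 13 (background 10.1%) and 23 (background 10.0%), or 17.8% and 31.5% of members. In the lower direction the members were few. At least 2-fold below Input were 0 under the SW480 labels (background 9.17%) and 2 under the DLD-1 labels (background 12.8%), MRPS6 and MRPS11. With the Inputs exchanged there were 2 (background 3.93%), MRPS11 and MRPS9, and 0 (background 4.51%). Over the second reading of the Inputs, from the acRIP-seq table, the members at least 2-fold higher numbered 18 and 16 as labelled (background 19.4% and 18.1%) and 14 and 17 exchanged (background 11.6% and 12.0%). Those at least 2-fold lower numbered 1 and 4 as labelled (background 8.71% and 12.1%) and 4 and 1 exchanged (background 4.22% and 4.34%). Over this second reading the members' share past 2-fold upward was 24.7% and 21.9% as labelled, and 19.2% and 23.3% exchanged.

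Ratios above 0 were found for 53 of 73 members as labelled in either line, against 58.0% and 52.9% of protein-coding genes, and for 55 and 60 with the Inputs exchanged, against 57.0% and 55.1%. Signs were also read over all 4 pairings, each of which shares a library with 2 of the others. Ratios above 0 in all 4 were found for 41 of 73 members, or 56.2%, against 30.0% of protein-coding genes. Ratios below 0 in all 4 were found for 8 members, or 11.0%, against 19.4% of protein-coding genes. The 8 were MRPL10, MRPL24, MRPS9, MRPS11, MRPS18B, MRPS23, MRPS26 and MRPS31, that is, 6 genes of the small subunit and 2 of the large. MRPS18B at -0.00 under the SW480 labels and MRPL10 at -0.02 under the DLD-1 labels were within counting error of 0. When the 4 pairings with the second reading of the Inputs were added, 25 members (34.2%) lay above 0 in all 8, against 20.6% of protein-coding genes, and 6 (8.22%) below 0 in all 8, against 10.9%. These 6 were the small subunit genes among the 8 named above. At least 2-fold above Input in all 4 pairings were MRPL3, MRPL13, MRPL19, MRPL34, MRPL47, MRPL54, MRPS10 and MRPS18C, or 11.0% of members against 3.54% of protein-coding genes.

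**Figure D2:**
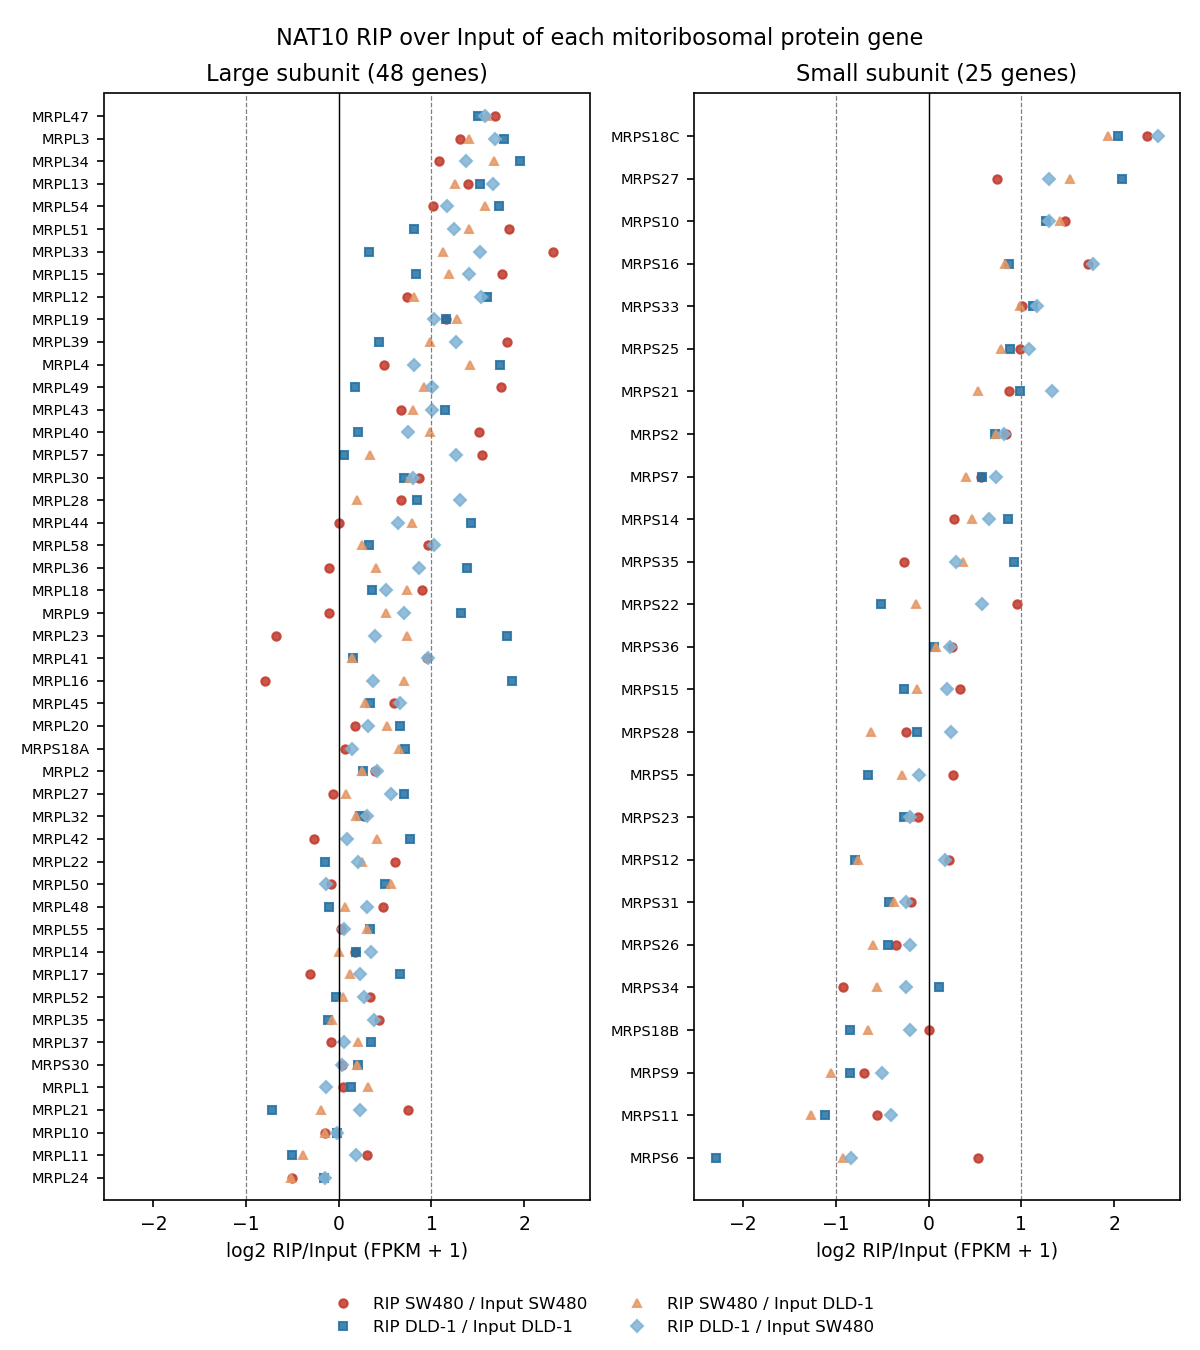
log2 RIP/Input (FPKM + 1) of each of the 73 MRP genes in 4 pairings of RIP and Input libraries, by subunit and ordered by the mean of the 4 values, with dashed lines at a 2-fold difference. MRPS18C reaches 1.93 to 2.47 in every pairing, while MRPS6 spans -2.29 to 0.53.

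MRPS18C, a bacterial-type small subunit protein, had the highest ratio of the family in 3 of the 4 pairings, the exception being DLD-1 as labelled, where MRPS27 reached 2.08. Its level was 10.6 FPKM in SW480-RIP and 11.6 in DLD-1-RIP, against 1.27 and 2.06 in SW480-Input and DLD-1-Input. Both RIP libraries were above both Inputs, and the log2 ratio was 2.36 ± 0.13 (counting SE) under the SW480 labels and 2.04 ± 0.13 under the DLD-1 labels. RefSeq annotates ABRAXAS1 over part of the same locus, so reads shared with that gene could not be separated. Over the acRIP-table Inputs the ratios of MRPS18C were smaller, 0.97 and 0.79 as labelled and 0.68 and 1.08 exchanged. Its paralogs behaved otherwise. MRPS18A, which sits in the large subunit, stood at 35.0 and 37.0 FPKM in the RIP libraries and 33.4 and 22.0 in the Inputs, with log2 ratios of 0.07 ± 0.07 and 0.72 ± 0.09. MRPS18B was listed at 58.5 and 51.0 FPKM in the RIP libraries and 58.6 and 92.9 in the Inputs, so that no RIP library exceeded an Input. Its log2 ratios were -0.00 ± 0.05 and -0.85 ± 0.04, and the former was within counting error of 0.

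Of the large subunit, MRPL3, a core protein that reaches towards the peptidyl transferase centre, gave the highest member level in DLD-1-RIP. It stood at 74.7 and 97.7 FPKM in SW480-RIP and DLD-1-RIP and at 29.6 and 27.7 in SW480-Input and DLD-1-Input, the order kept for the genes that follow, with log2 ratios of 1.31 ± 0.06 and 1.78 ± 0.06. MRPL47, a protein of the tunnel exit region, stood at 29.4 and 27.3 FPKM against 8.44 and 9.03, and MRPL13 at 14.7 and 17.9 against 4.97 and 5.60. For these 3 genes every RIP value exceeded every Input value by at least 2-fold on the FPKM + 1 scale. MRPL34 (37.7 and 46.2 FPKM against 17.3 and 11.2), MRPL54 (26.7 and 29.7 against 12.7 and 8.28) and MRPL19 (25.1 and 23.0 against 10.7 and 9.77) followed. In the small subunit MRPS10 stood at 39.3 and 34.9 FPKM against 13.6 and 14.0. Against the Inputs of the acRIP-seq table as well, MRPL3, MRPL13, MRPL34 and MRPL54 were at least 2-fold higher in all 8 pairings, or 5.48% of members against 1.52% of protein-coding genes. The other 4 lay above 0 there too, but lower, with MRPL19 between 0.22 and 0.53 and MRPL47 between 0.71 and 1.03.

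Among members with a ratio below 0 in all 4 pairings, MRPS9 stood at 21.4 and 24.9 FPKM in the RIP libraries and at 35.4 and 45.5 in the Inputs, with log2 ratios of -0.70 ± 0.07 and -0.85 ± 0.06. MRPS11 stood at 4.64 and 5.25 FPKM against 7.30 and 12.6, MRPS26 at 29.8 and 33.3 against 38.2 and 45.6, and MRPS31 at 21.5 and 20.6 against 24.6 and 28.1. Each RIP value of these 4 genes lay below each Input value. Of the 2 large subunit genes below Input in all 4 pairings, MRPL24 was the lower, at 34.1 and 43.5 FPKM against 48.4 and 48.8. Over the acRIP-table Inputs MRPL24 turned to between 0.08 and 0.58, whereas MRPS9 stayed between -1.18 and -0.89. RefSeq places HDGF over part of MRPL24 and antisense genes over part of MRPS9, as it does ACTL6A over part of MRPL47.

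The median of the large subunit genes was above that of the small subunit genes in each of the 4 pairings. Large subunit genes had medians of 0.48 under the SW480 labels, 0.46 under the DLD-1 labels, and 0.46 and 0.60 with the Inputs exchanged, whereas small subunit genes had medians of 0.27, 0.06, -0.13 and 0.24. Over the acRIP-table Inputs the same medians were 0.59, 0.41, 0.34 and 0.57 for the large subunit and 0.25, 0.14, -0.02 and 0.11 for the small. Above 0 were 37 and 40 of 48 large subunit genes as labelled and 43 and 44 exchanged. Of 25 small subunit genes, 16 and 13 lay above 0 as labelled and 12 and 16 exchanged. The quartiles of both sets overlapped in every pairing, as the plot of gene groups shows, and with 1 library per group no test of this difference was made. Split by a fixed list, the 44 genes listed as shared with bacteria had medians of 0.41, 0.66, 0.40 and 0.46. The other 29 genes, counted as specific to mitochondria, had medians of 0.48, 0.33, 0.34 and 0.58, so the order changed with the pairing. MRPS18A and MRPS18B were counted with the 29, although their paralog MRPS18C was counted with the 44. Over the acRIP-table Inputs the 44 genes had the higher median each time, with 0.46, 0.51, 0.33 and 0.59 against 0.32, -0.07, 0.14 and 0.33.

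Members with defined tasks on the ribosome are described in turn. Of the stalk that recruits translation factors, MRPL12 was low, at 2.66 and 5.33 FPKM in the RIP libraries and 1.20 and 1.08 in the Inputs, with log2 ratios of 0.74 ± 0.38 and 1.60 ± 0.38. MRPL12 stood at -0.16 and 1.34 over the acRIP-table Inputs as labelled and at 0.55 and 0.63 exchanged. Beside these low levels, its highest ac4C peak folds were 271 in the SW480 list and 56.3 in the DLD-1 list. Whether its FPKM values understate its level was not tested. MRPL10, which anchors the stalk, differed little between these libraries, at 31.4 and 34.4 FPKM against 34.9 and 34.9. MRPL11, at the stalk base, stood at 25.1 and 23.0 FPKM against 20.1 and 33.1, so its sign followed the Input chosen. MRPL45, which ties the ribosome to the inner membrane, stood at 34.3 and 35.9 FPKM against 22.3 and 28.1, and both RIP values exceeded both Inputs. Over the acRIP-table Inputs, however, MRPL45 lay between -0.24 and -0.07. MRPL44, a protein with an RNase III fold, stood at 18.0 and 28.5 FPKM against 18.0 and 9.96, and over the acRIP-table Inputs its ratios ran from -0.65 to 0.82. MRPL58, a peptidyl-tRNA hydrolase built into the large subunit, reached 40.8 and 43.1 FPKM against 20.5 and 34.1, again above both Inputs, although over the acRIP-table Inputs its ratios ran from -0.15 to 0.38. In the small subunit, MRPS2 was at 49.4 and 48.9 FPKM against 27.4 and 29.5, MRPS12 of the decoding centre at 21.4 and 20.8 against 18.2 and 36.8, and MRPS22 at 36.3 and 27.8 against 18.3 and 40.1. MRPS2 was thus above both Inputs, and MRPS12 and MRPS22 lay between them. All 3 lay above 0 in each pairing with the acRIP-table Inputs, MRPS2 at 0.60 to 1.07, MRPS12 at 0.25 to 0.41 and MRPS22 at 0.14 to 1.24.

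**Figure D3:**
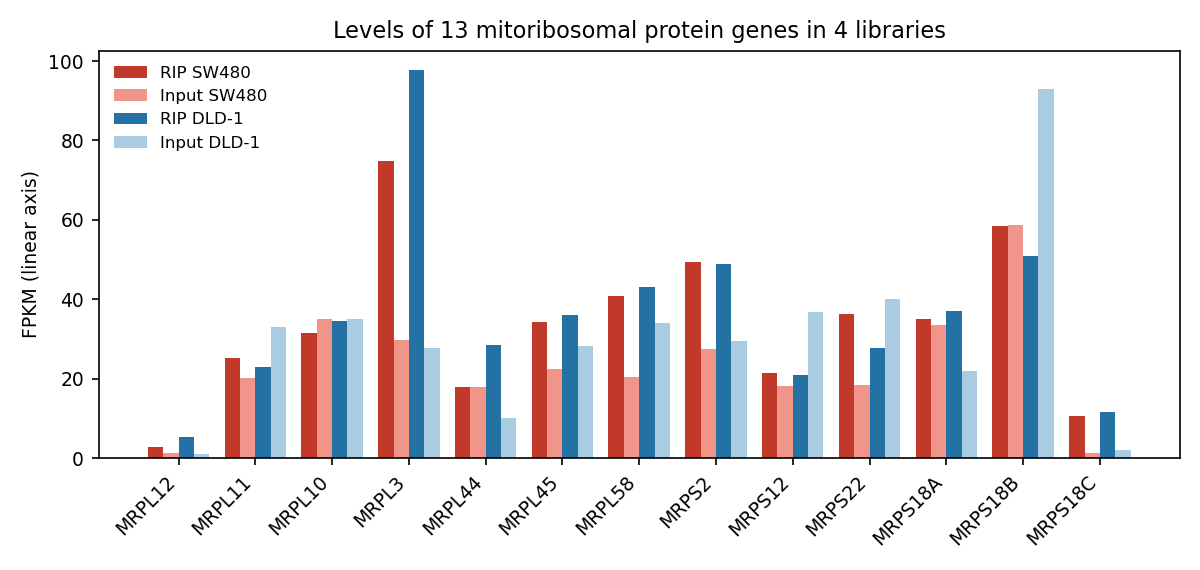
FPKM (linear axis) of 13 MRP genes chosen by their role, in the RIP and Input libraries of each label, with 1 library per bar. MRPL3 and MRPS18C are higher in both RIP libraries than in both Inputs, and MRPS18B is highest in DLD-1-Input, at 92.9.

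The sign of the ratio differed between the labels for 22 of 73 members (30.1%), against 47.6% of protein-coding genes, and with the Inputs exchanged for 9 (12.3%) against 19.0%. The 5 members described next were picked for the width of this gap. MRPS6, a bacterial-type protein of the small subunit, stood at 18.8 FPKM in SW480-RIP and 12.7 in SW480-Input, and at 6.62 in DLD-1-RIP and 36.4 in DLD-1-Input, with log2 ratios of 0.53 ± 0.06 and -2.29 ± 0.06. Exchanging the Inputs gave -0.92 and -0.84 for MRPS6, whose interval in RefSeq overlaps SLC5A3. MRPL16 stood at 28.4 and 50.2 FPKM in the SW480 libraries and 65.1 and 17.1 in the DLD-1 libraries, RIP first, and its ratios of -0.80 and 1.87 became 0.70 and 0.37. MRPL23 followed the same pattern, from -0.68 and 1.82 to 0.74 and 0.39, while its acRIP-table Inputs gave 1.49 and 3.34 as labelled, and RefSeq annotates H19 inside its interval. MRPL33 (2.31 and 0.33) and MRPL49 (1.75 and 0.18) lay above 0 in these 4 pairings, at 1.12 and 1.52 and at 0.92 and 1.01 after the exchange, although MRPL49 stood at -0.53 for DLD-1-RIP over the acRIP-table Input of its label. For all 5 genes the gap between both ratios was smaller with the Inputs exchanged. Picking genes by the widest gap as labelled favours that outcome, so no conclusion about the pairing is drawn from it.

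**Figure D4:**
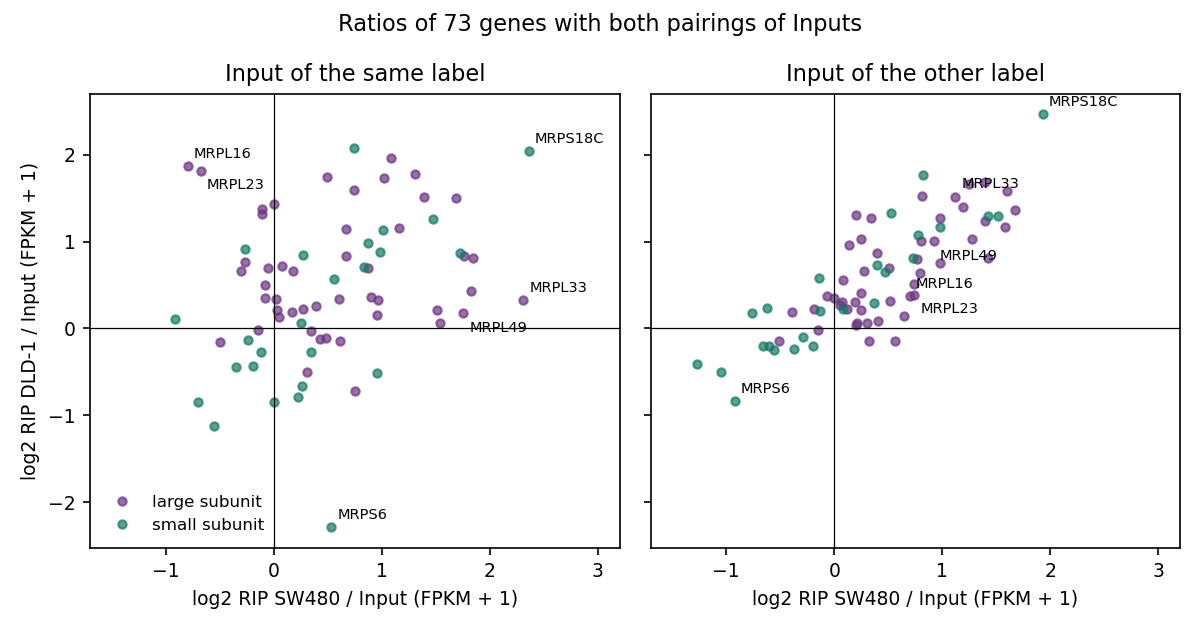
log2 RIP/Input (FPKM + 1) of the 73 MRP genes, SW480-RIP on the horizontal axis and DLD-1-RIP on the vertical, with the Inputs as labelled (left) and exchanged (right), colored by subunit. MRPS6 lies at 0.53 and -2.29 on the left and at -0.92 and -0.84 on the right.

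Other genes of mitochondrial translation were set beside the family. Of 12 translation factors, 11 lay above Input under the SW480 labels and 9 under the DLD-1 labels, with medians of 0.66 and 0.27, and of 0.45 and 0.55 after exchange. The number at least 2-fold higher was 3 and 0 as labelled (background 17.4% and 16.7%) and 2 and 0 exchanged (10.1% and 10.0%). TACO1, an activator of mitochondrial COX1 translation, had the highest ratio of the 12 in 3 of the 4 pairings, at 15.1 and 10.2 FPKM in the RIP libraries against 4.87 and 4.89 in the Inputs, and TUFM, the mitochondrial elongation factor Tu, lay lower in both RIP libraries, at 81.3 and 93.4 FPKM against 128 and 124. Of 24 genes of ribosome assembly and rRNA modification, 4 and 5 were at least 2-fold higher as labelled, or 16.7% and 20.8%, near that background, and 2 and 3 exchanged. At least 2-fold lower were 2 and 0 as labelled (background 9.17% and 12.8%) and 1 and 1 exchanged (3.93% and 4.51%). The group had medians of 0.35 and 0.20, and of 0.31 and 0.36 after exchange. METTL17, an assembly factor of the small subunit, stood at 13.1 and 12.3 FPKM against 2.39 and 3.36, and MTG1, a GTPase of large subunit assembly, at 0.544 and 1.27 against 3.78 and 2.63. The 5 mitoribosome proteins with other symbols (DAP3, PTCD3, AURKAIP1, CHCHD1 and GADD45GIP1) had medians of -0.16 and 0.05, and of -0.43 and 0.27 after exchange, with 0 past 2-fold in either direction in these pairings. The cytosolic ribosomal protein genes, 83 of 89 of which reached the Input minimum, had medians of -0.04 and 0.98, and of 0.27 and 0.63 after exchange, so their order relative to the MRP genes changed with the pairing.

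For ac4C, the authors' peak lists were read for the same genes. At least 1 peak was assigned to 52 of 78 members (66.7%, 95% Wilson interval 55.6 to 76.1%) in the SW480 list, to 71 (91.0%, 82.6 to 95.6%) in the DLD-1 list and to 72 (92.3%, 84.2 to 96.4%) in the list called on both lines together. Of the 73 members that reached the Input minimum, 48 (65.8%), 67 (91.8%) and 67 (91.8%) were hosts, and of all protein-coding genes past the same minimum 51.1%, 56.8% and 63.6%. Of the cytosolic ribosomal protein genes 86.7%, 86.7% and 88.0% were hosts, and of the mitochondrial translation factors 75.0% in each list. Both groups thus lay above the members in the SW480 list and below them in the DLD-1 list. Of the 24 genes of ribosome assembly and rRNA modification, 58.3%, 79.2% and 87.5% were hosts. For the 5 mitoribosome proteins with other symbols the shares were 80.0%, 100% and 80.0%, so the members' share was not the highest in any list but the pooled one. Peaks in both line lists were found for 47 of the 73 members (64.4%), against 40.3% of protein-coding genes. The Wilson intervals treat genes as independent draws, although the members are a complete set read from 1 list each time. They measure no spread between libraries. The members' median Input level of 14.3 and 17.1 FPKM was above that of all protein-coding genes, 9.96 and 10.4. Transcripts of the latter were also longer, with a median length inferred from the FPKM steps of 4036 bases against 1980. The part of level and length in these shares was not tested.

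Over all 78 members, 50 hosted peaks in both line lists, 21 in the DLD-1 list only and 2, MRPL38 and MRPS11, in the SW480 list only. Among the 73 members past the Input minimum, 27.4% were in the DLD-1 list only, 1.37% in the SW480 list only and 6.85% in neither. Of all protein-coding genes past it, these shares were 16.5%, 10.9% and 32.3%. The 5 members without a peak in either line list were MRPL23, MRPL36, MRPL39, MRPS6 and MRPS30, and none of these had a pooled peak, nor did MRPL50. Of large and small subunit genes past the Input minimum, 66.7% and 64.0% were hosts in the SW480 list and 91.7% and 92.0% in the DLD-1 list. The line lists held 61 and 109 member peaks, up to 3 and 4 in a gene, and the pooled list 115.

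Member peaks lay mainly in 3′ untranslated regions, coding sequence and exons without further class. In the SW480 list 47.5% were placed in 3′ untranslated regions, 26.2% in coding sequence and 24.6% in exons, and in the DLD-1 list 34.9%, 38.5% and 23.9%. Among peaks of all protein-coding hosts the same classes held 56.3%, 25.8% and 16.6% in the SW480 list and 43.2%, 40.0% and 15.0% in the DLD-1 list. Peaks in 5′ untranslated regions numbered 1 and 3. The median fold over Input given by the authors was 30.2 in the SW480 list and 28.3 in the DLD-1 list, against 19.8 and 14.7 over peaks of all protein-coding hosts. Member peaks were also longer, with medians of 325 and 328 bases against 210 and 211. At least 1 motif site was listed in 67.2% and 59.6% of member peaks, against 56.2% and 54.8% of those of all protein-coding hosts, while per kilobase of peak the members held fewer sites, 4.93 and 4.23 against 5.11 and 4.60.

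The peaks of both lines were then compared by position. Of 61 member peaks in the SW480 list, 54 (88.5%) overlapped a DLD-1 peak of the same gene by at least 1 base, and of 109 in the DLD-1 list 55 (50.5%) overlapped a SW480 peak. Over peaks of all protein-coding hosts the shares were 55.6% and 35.9%. With an overlap of at least 50% of each peak, 40 member peaks were shared, or 65.6% and 36.7%, against 35.9% and 24.0%. The highest smaller fold of a shared pair was found in MRPS15, a bacterial-type small subunit protein, whose peak on chr1:36455807-36456544 (GRCh38) had the same bounds in both lists, 477 bases in 2 blocks, and folds of 611 and 609. MRPL20 (467 and 260), MRPL9 (293 and 211), MRPS17 (670 and 201), MRPL4 (166 and 139), MRPL51 (224 and 127), MRPL28 (793 and 114) and MRPL53 (1550 and 109) followed, with the SW480 fold given first. Of these genes, MRPL53 and MRPS17 were under the Input minimum, and MRPL53 was listed at 0 in DLD-1-Input. Over all 56 overlapping pairs of member peaks, the SW480 fold was the higher in 29 (51.8%) and the DLD-1 fold in 27. Over 5198 such pairs of all protein-coding hosts, the SW480 fold was the higher in 54.2%.

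**Figure D5:**
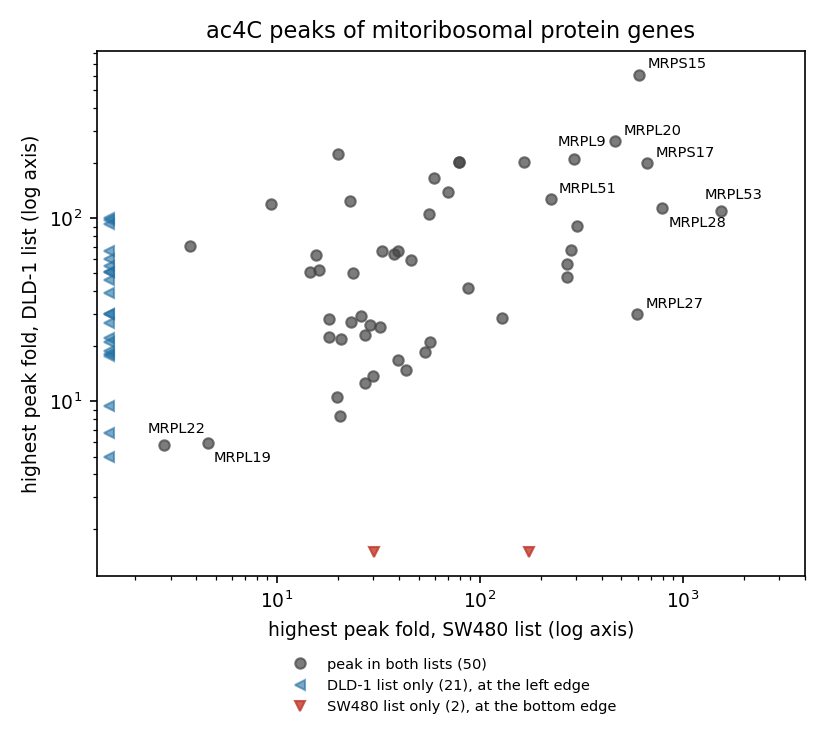
Highest fold over Input of the ac4C peaks of each MRP gene in the SW480 list (horizontal, log axis) and the DLD-1 list (vertical, log axis), 1 point per gene, with genes in 1 list only placed at the edges. Peaks in both lists were found for 50 genes, and MRPS15 has the highest fold in the DLD-1 list, 609.

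The peaks of the 8 genes at least 2-fold above Input in all 4 pairings covered a wide range. In the SW480 and DLD-1 lists, MRPL19 had peaks of 4.58-fold and 5.90-fold, MRPL13 of 3.75-fold and 70.8-fold, and MRPL54 of 23.2-fold and 27.2-fold. MRPS18C and MRPS10 had none in the SW480 list, but their highest folds in the DLD-1 list were 17.7 and 18.1. MRPL3 had a SW480 peak of 20.0-fold that overlapped a DLD-1 peak of 36.2-fold. Its DLD-1 peak of 224-fold lay elsewhere, in coding sequence, and none of these peaks held a listed motif site. MRPL34 and MRPL47 had folds of 69.7 and 140 and of 59.3 and 166. MRPS15, with the highest shared peak, had RIP levels of 47.4 and 43.0 FPKM, between its Inputs of 37.2 and 52.0. MRPS17, under the Input minimum, had log2 ratios of 1.61 and 1.34 as labelled and peaks of 670-fold and 201-fold. Across members, the median log2 RIP/Input under the SW480 labels was 0.64 for the 48 hosts in the SW480 list and 0.25 for the 25 other genes, and 0.44 and 0.28 over DLD-1-Input, against 0.21 and 0.14 as labelled and 0.14 and 0.09 over DLD-1-Input for all protein-coding genes. Under the DLD-1 labels it was 0.36 for 67 hosts and 0.32 for 6 other genes, and over SW480-Input 0.56 and 0.22, against 0.20 and -0.12 as labelled and 0.18 and -0.03 over SW480-Input for all protein-coding genes. The hosts' median Input level was 16.6 FPKM against 12.7 in the SW480 comparison (14.2 against 6.90 for all protein-coding genes), and its part in that difference was not tested.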

How the data were processed

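RIP-seq and acRIP-seq were run by a sequencing provider. The authors deposited FPKM values per Ensembl gene for RIP and Input, a second table of Input values whose unit is unnamed and which was read as FPKM, and 3 peak lists with a p-value, an FDR and a fold over Input (a ratio) for each peak. The submitters' processing notes name cutadapt 2.5 and HISAT2 2.1.0 and the builds GRCh38, hg38 and GRCm38. The peak caller, the counting tool and the use of strand are not given in the sources used here. The RIP/Input ratios that the authors deposited were not used.

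Whole reads were recovered from the FPKM steps for 14853 of 14872 protein-coding genes tested. They are the smallest whole numbers that fit, so depths are lower limits and counting errors upper limits. Ratios were log2((RIP FPKM + 1)/(Input FPKM + 1)), which understates differences of low genes. Values of the second Input table were multiplied by 1.45 and 1.52. These are the medians of the per-gene ratio of the first to the second Input set, over protein-coding genes of at least 1 FPKM. Called means at least 2-fold. Wilson intervals treat genes as independent draws and measure no spread between libraries. The analysis used pandas, numpy and scipy, and the recovery was tested on simulated data. RefSeq matched all 78 members, MRPS36 by a synonym, and 32 overlap another RefSeq gene, so their reads could be shared. Named genes were 13 fixed by role, the 5 highest and 5 lowest ratios of like sign, the 5 largest gaps between labels, the 3 highest and 3 lowest Inputs, the 8 highest shared peaks, and those past 2-fold in all 4 pairings. The members and lists were chosen with earlier results of these data known.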

Additional observations from a re-analysis of the deposited data

Results flagged for a closer look

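Of the 41 genes named by rule, 37 reached the Input minimum, and 10 of these 37 had log2 RIP/Input ratios of opposite sign under both labels. With 1 library per group the differences were not tested. The SW480 value minus the DLD-1 value was 2.83 for MRPS6, 1.46 for MRPS22, 1.01 for MRPS12, 0.81 for MRPL11 and 0.61 for MRPS15, where the SW480 ratio was the higher. It was -2.67 for MRPL16, -2.50 for MRPL23, -1.42 for MRPL9, -1.04 for MRPS34 and -0.43 for MRPL37, where it was the lower. With the Inputs exchanged, 6 of the 10 had the same sign in both RIP libraries: MRPL9, MRPL16, MRPL23 and MRPL37 lay above 0, and MRPS6 and MRPS34 below 0. The other 4, MRPL11, MRPS12, MRPS15 and MRPS22, then had a ratio below 0 in SW480-RIP and above 0 in DLD-1-RIP, the reverse of their order under the labels. With the acRIP-table Inputs as labelled, MRPL11, MRPL16, MRPS15 and MRPS34 again had opposite signs, and the other 6 did not. Of these, MRPS12 stood at 0.41 and 0.25, MRPS22 at 1.24 and 0.14, and MRPS6 at -0.21 and -3.12.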

How the results depend on the processing

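Of 62 alternative values of the summary results, 52 stayed within their limits (1.5 times for a count, the 95% interval of the median for a median). That interval runs over the member genes as if they were independent draws, and it measures no spread between libraries. The members' median ratio ranged from 0.22 to 0.47 under the SW480 labels and from 0.29 to 0.51 under the DLD-1 labels. The lowest, 0.22, was over the acRIP-table Input labelled DLD-1, and centring on all protein-coding genes gave 0.25 and 0.29. The small counts at least 2-fold below Input moved: from 0 under the SW480 labels to 1 with centring, 2 over the other Input, 1 over the acRIP-table Input and 4 over that of the other label, and from 2 under the DLD-1 labels to 0, 4 and 1 over the same 3 Inputs. The cause was not tested. Of 46 members that overlap no other RefSeq gene, a restriction chosen after seeing the data, 34, 42 and 43 hosted a peak in the SW480, DLD-1 and pooled lists, lower because fewer genes were counted. MRPL44 under the DLD-1 labels went from 1.43 to -0.02 over the acRIP-table Input labelled SW480. With the Inputs exchanged, 10 of 41 named genes changed direction for SW480-RIP and 6 for DLD-1-RIP. With the acRIP-table Inputs 11 and 8 did so as labelled, and 10 and 11 exchanged. No paired analysis was possible because the groups compared share 1 replicate number and no result comes from a test. A fit that treats both lines as replicates was not run. Counting error limits the ratios of low members most, and MRPL12 had a counting SE of 0.38.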
